A study of Mus musculus with 2 samples.

Results

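Nuclear-encoded subunits of the mitochondrial respiratory chain were described across the cell classes of single-cell libraries from mouse brain. Members were all gene symbols of the feature list that belong to the Ndufa, Ndufb, Ndufc, Ndufs and Ndufv families (assembly factors left out), to Cox4 to Cox8, to Atp5, to Uqcr or to Sdha to Sdhd, with at least 30 unique molecular identifiers (UMIs, each marking 1 captured transcript) over both libraries. Of 25906 listed genes 88 matched and 86 were kept: 39 were assigned by symbol to complex I, 4 to complex II, 8 to complex III, 18 to complex IV and 17 to complex V. The symbols left out were Cox8c and Ndufb11b, each with 0 UMIs, and the members just inside the limit were Cox5b-ps with 33 UMIs and Cox6a2 with 58. Ndufa4, which is now counted as a complex IV subunit, stayed under complex I by its symbol, and Ndufa4l2, Cox7a2l and the pseudogene-named Cox5b-ps are relatives rather than classical subunits.

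The input was a sort for astrocytes and endothelial cells, taken from the whole adult mouse brain and run on the 10x Chromium 3' platform. One library came from mice of genotype IL34LacZ/+, which the design text equates with wild type, and one from mice of genotype IL34LacZ/LacZ, which it equates with knockout, so both groups carry a LacZ allele of Il34 and the controls keep a normal copy. The series title concerns vascular function and the perivascular macrophages that need interleukin-34. The exact age, the strain, the sort markers and the number of mice behind each library are not stated in the sources used here.

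The respiratory chain sits in the inner mitochondrial membrane. Complexes I and II pass electrons from NADH and succinate to ubiquinone, complex III passes them to cytochrome c and complex IV to oxygen, while complex V uses the proton gradient to make ATP. Complexes I, III, IV and V mix subunits from nuclear and mitochondrial genes, and complex II, which is also an enzyme of the citric acid cycle, is nuclear alone. Several complex IV subunits and the c subunit of complex V come in alternative forms from separate genes. In the brain, the choroid plexus epithelium secretes cerebrospinal fluid and is rich in mitochondria.

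The libraries held 3901 and 5400 barcodes with 26679053 and 36696941 UMIs, in the order IL34LacZ/+ and IL34LacZ/LacZ, which is kept throughout. Filtering left 1659 and 1167 cells with a median of 8053 and 10366 UMIs, and 8 barcode sequences were found in both libraries, 2 of them in both sets of kept cells. A marker gate placed 1538 and 1087 cells into classes, named as resembling the cell type of their markers. Each described class had all 10 of its listed markers detected and no marker of another class among its top 10 genes. The gate used these same markers, so neither result is an independent check of the class names. Own markers among the top 10 genes numbered 5 in endothelial-like, 1 in astrocyte-like and 3 in oligodendrocyte-like cells. They numbered 5 in choroid plexus epithelium-like, 4 in pericyte-like and 2 in fibroblast-like cells. Much of both libraries lay outside the labelled cell types: 528 and 303 cells were endothelial-like and 253 and 123 astrocyte-like, but 353 and 258 were choroid plexus epithelium-like, 251 and 232 oligodendrocyte-like, 33 and 47 pericyte-like and 32 and 44 fibroblast-like. Il34 itself was at 10.3 CPM (8.79 to 12 CPM) and 18.8 CPM (16.6 to 21.3 CPM) over the kept cells, higher where the label names a knockout, where CPM is a gene's UMIs scaled to equal totals of all UMIs. It was not examined whether the counted tags lie in the altered part of the gene, so Il34 does not check the labels. Every direction therefore rests on the labels as given. With 1 library per genotype there is no replicate, no test of genotype was possible, and the intervals given are at the 95% level for counting error alone.

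Among the 6 described classes the summed members were highest in choroid plexus epithelium-like cells and lowest in endothelial-like cells. In choroid plexus epithelium-like cells the 86 members summed to 63352 CPM (63124 to 63580.2) and 66423 CPM (66164 to 66683), or 6.34% and 6.64% of all UMIs of the class. Endothelial-like cells held 4228 CPM (4152 to 4305) and 3239 CPM (3154 to 3326). The fold between these classes was 14.99 (14.7 to 15.3) and 20.5 (19.97 to 21.1). Both libraries placed the remaining described classes between these ends. Oligodendrocyte-like cells held 14708 and 13949.5 CPM, fibroblast-like cells 11871.5 and 14206 CPM, astrocyte-like cells 9070.2 and 8616 CPM, and pericyte-like cells 6738 and 4007 CPM. Oligodendrocyte-like and fibroblast-like cells changed places between the libraries, while the order of the other classes was the same in both.

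The median cell showed the same contrast between the highest and the lowest class. In choroid plexus epithelium-like cells it gave 746 and 865 member UMIs, or 60801 and 67131 CPM. In endothelial-like cells it gave 13 and 12 member UMIs, or 2927 and 2656 CPM, which is below the summed level. Transthyretin (Ttr), the main secretory transcript of choroid plexus, bears on free RNA at these low levels: it took 290437 and 244190 CPM in choroid plexus epithelium-like cells and was at 1417 and 1029 CPM in endothelial-like cells, 0.488% and 0.421% of that level. Member transcripts carried over at those shares would amount to 309 and 280 CPM, which is 7.31% and 8.64% of the endothelial level. In pericyte-like cells the same reckoning gave 5.21% and 6.90%, and in the other described classes at most 3.70%.

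Choroid plexus epithelium-like cells had the highest level of 79 of the 86 members in both libraries. Of the 81 members with at least 30 UMIs over both classes, 72 and 76 were at least 5-fold higher there than in endothelial-like cells, against 12.2% and 15.7% of all genes compared. Against astrocyte-like cells 50 of 82 and 55 of 81 members were, with 8.6% and 9.1% of all genes, and against oligodendrocyte-like cells 24 and 27 of 81, with 11% and 10.9% of all genes. The median member was 14.1-fold and 20.8-fold higher than in endothelial-like cells, while the median of all genes was 0.442-fold and 0.519-fold. The members without a choroid plexus peak in both libraries were Ndufs1 and Cox7b2, highest in astrocyte-like cells, Cox4i2 and Ndufa4l2, highest in pericyte-like cells, Ndufb4, highest in choroid plexus epithelium-like cells of the library labelled IL34LacZ/+ (184 CPM) and in fibroblast-like cells of the other (251 CPM), and the sparse Cox6a2 and Cox5b-ps.

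Depth and composition differed between these classes as well. Mitochondrial genes took 9.15% and 10.4% of UMIs in choroid plexus epithelium-like cells but 2.26% and 2.99% in endothelial-like cells. Ribosomal protein genes took 6.82% and 6.87% in the former and 1.29% and 0.872% in the latter. The median cell had 12150.0 and 13768 UMIs in the former and 4351 and 4841 in the latter. Their part in the class difference of the members was not tested.

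**Figure D1:**
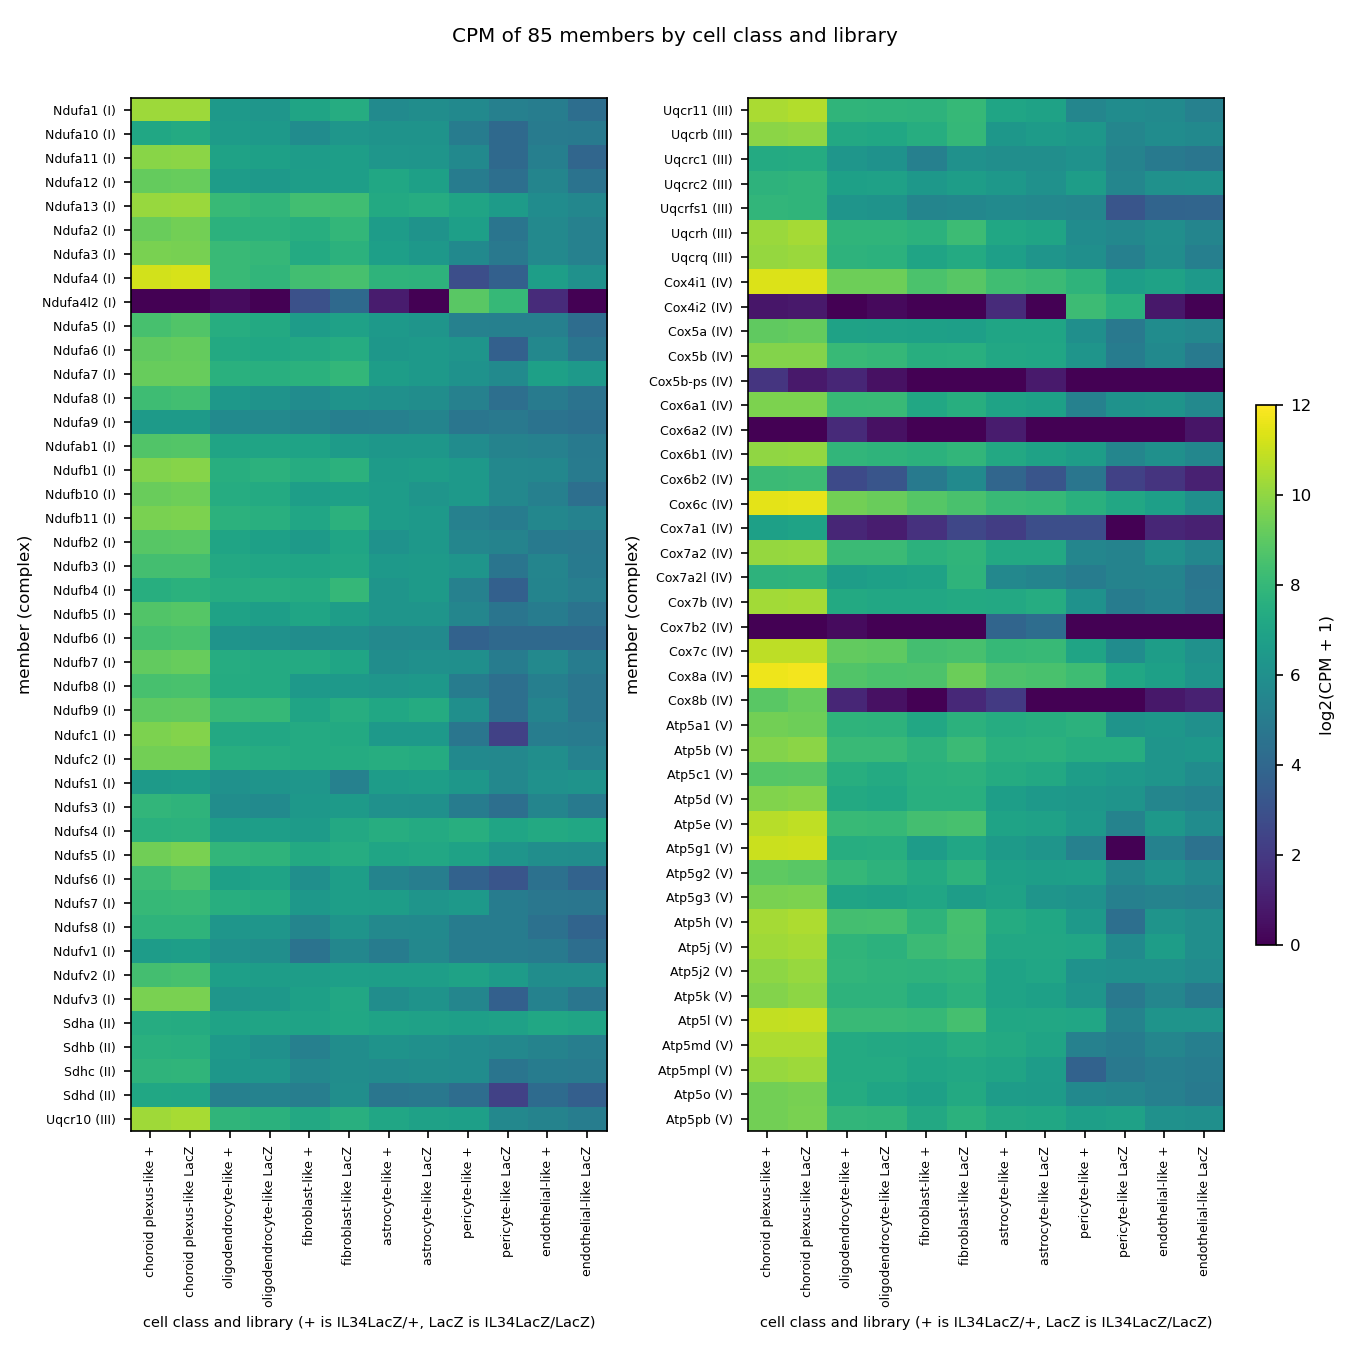
Level of each of 85 members, as log2(CPM + 1), in 6 cell classes and both libraries, with members in rows grouped by complex and classes in columns. The choroid plexus columns at the left are brightest for 78 of them in both libraries, and the rows of Cox4i2 and Ndufa4l2 are bright in the pericyte columns.

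The complexes differed between the classes to unequal extents. From endothelial-like to choroid plexus epithelium-like cells, complex IV was 20.8-fold and 31.8-fold higher, complex III 17.6-fold and 23.2-fold, complex V 17.5-fold and 23.1-fold and complex I 11.7-fold and 16.0-fold. Complex II was 3.17-fold and 3.57-fold higher, at 229.7 and 203 CPM in endothelial-like and 729 and 723 CPM in choroid plexus epithelium-like cells. Complex II accordingly made up 5.43% (5.03 to 5.86) and 6.25% (5.63 to 6.93) of the members' UMIs in endothelial-like cells but 1.15% (1.11 to 1.19) and 1.09% (1.05 to 1.13) in choroid plexus epithelium-like cells. Astrocyte-like cells, with 3.01% and 3.06%, and oligodendrocyte-like cells, with 2.24% and 2.24%, lay between. A 3' library counts tags per transcript end, so no value was divided by length, but capture can differ between genes, and these shares are compared only between classes.

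**Figure D2:**
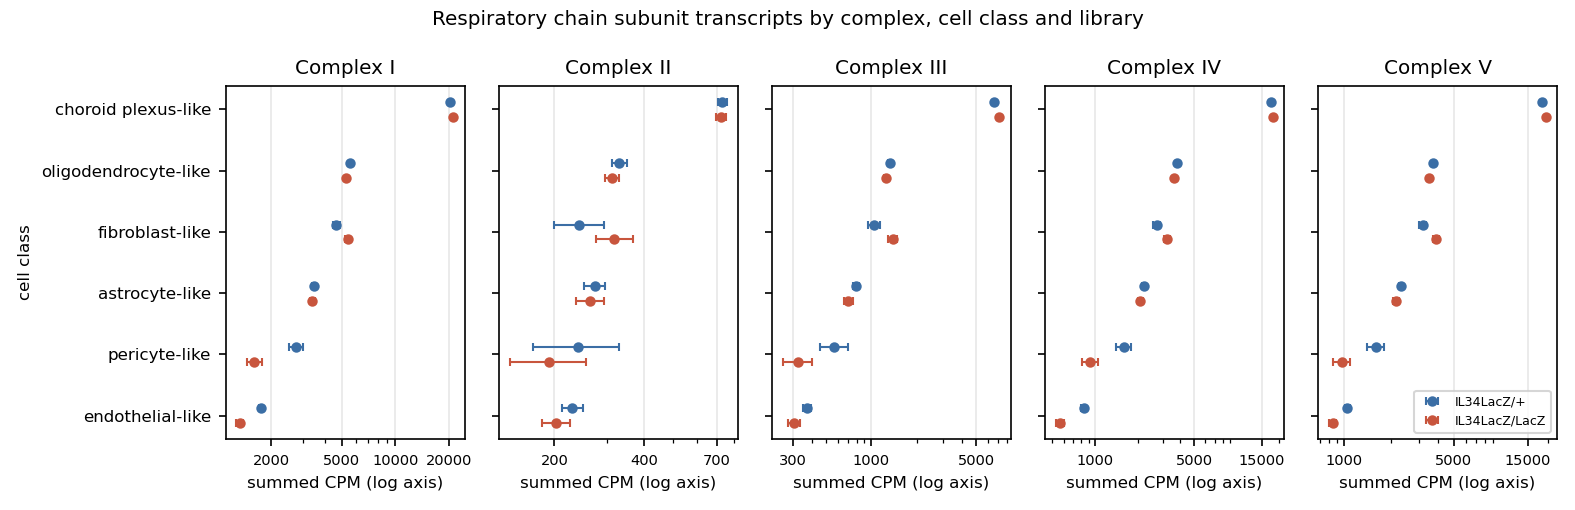
Summed CPM of the members of each complex (log axis, a separate range per panel) in 6 cell classes, with the library labelled IL34LacZ/+ in blue and that labelled IL34LacZ/LacZ in red; bars are exact Poisson 95% intervals. Choroid plexus epithelium-like cells stand to the right in every panel, and the distance to endothelial-like cells is smallest for complex II, at 3.17-fold and 3.57-fold.

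Among the members of complex I, Ndufa4 had the most UMIs, with 2311 and 2436 CPM in choroid plexus epithelium-like cells, 223 and 212 CPM in astrocyte-like cells and 105 and 66.7 CPM in endothelial-like cells. Ndufa13, an accessory subunit, followed with 1119.6 and 1181 CPM in choroid plexus epithelium-like and 56.4 and 46.1 CPM in endothelial-like cells. The core subunits Ndufs1 and Ndufv1 had fewer UMIs, and their class difference was smaller. Ndufs1, the large iron-sulfur subunit of the NADH-oxidising arm, was at 92.04 and 98.7 CPM in choroid plexus epithelium-like cells, 99.2 and 105 CPM in astrocyte-like cells and 67.2 and 70.8 CPM in endothelial-like cells. Ndufv1, which binds NADH, was at 99.5 and 105 CPM in choroid plexus epithelium-like and 28.4 and 18.9 CPM in endothelial-like cells. Of these 4 members Ndufs1 was the one without its peak in choroid plexus epithelium-like cells.

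In complex II the catalytic flavoprotein Sdha varied little between classes, from 107 and 116 CPM in pericyte-like cells to 172 and 165 CPM in choroid plexus epithelium-like cells, with 141 and 126 CPM in endothelial-like cells. It was 1.22-fold (1.08 to 1.38) and 1.31-fold (1.12 to 1.54) higher in choroid plexus epithelium-like than in endothelial-like cells. The other 3 subunits varied more. The iron-sulfur subunit Sdhb, at 195 and 191 CPM and 39.9 and 34.2 CPM in these classes, was 4.89-fold (4.01 to 6.01) and 5.56-fold (4.26 to 7.40) higher. The membrane anchor Sdhc, at 223 and 229.9 CPM and 31.6 and 31.3 CPM, was 7.05-fold (5.67 to 8.86) and 7.35-fold (5.56 to 9.89) higher, and the anchor Sdhd, at 139.7 and 138 CPM and 17.3 and 11.2 CPM, was 8.09-fold (6.03 to 11.1) and 12.3-fold (7.79 to 20.6) higher. Sdha gave 392 and 213 of the complex II UMIs in endothelial-like cells, more than the other 3 subunits together.

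In complex III the small subunits had the most UMIs. Uqcr11 was at 1432 and 1569.6 CPM in choroid plexus epithelium-like and 51.8 and 37.2 CPM in endothelial-like cells, and Uqcrh, the hinge protein, at 1183 and 1332 CPM and 59.7 and 43.1 CPM. The Rieske iron-sulfur subunit Uqcrfs1, which hands electrons on towards cytochrome c, was at 236 and 229.6 CPM and 13.7 and 14.2 CPM, and the core protein Uqcrc1 at 163 and 166 CPM and 29.5 and 24.8 CPM. These 4 members differed between the classes in the same direction in both libraries.

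In complex V the membrane subunit Atp5l was at 1909 and 2002 CPM in choroid plexus epithelium-like and 72.97 and 73.8 CPM in endothelial-like cells. The catalytic subunit Atp5b was at 877 and 956 CPM and 74.4 and 81.5 CPM, and its partner in the catalytic head, Atp5a1, at 689 and 654 CPM and 79.8 and 63.2 CPM. All 3 were higher in choroid plexus epithelium-like cells in both libraries.

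Complex IV has the most alternative forms, and several differed between classes. Its members with most UMIs were Cox8a, at 3335 and 3489 CPM in choroid plexus epithelium-like and 111 and 73.8 CPM in endothelial-like cells, and Cox6c, at 2932 and 3055 CPM and 110.0 and 61.4 CPM. Choroid plexus epithelium-like cells also held 3 forms better known from muscle or testis. Cox8b, a heart and muscle form (chr7:140898945-140900446, minus strand, GRCm38, protein-coding in GENCODE M21), was at 483 and 586 CPM, which made 12.7% (12.2 to 13.2) and 14.4% (13.8 to 14.9) of the Cox8a and Cox8b UMIs. In endothelial-like cells Cox8b had 2 and 2 UMIs, where choroid plexus RNA carried over at the share of Ttr would give 6.56 and 4.18. The counted ratio of the classes was 672-fold (186 to 5556) and 496-fold (137 to 4099.9), but its denominator is not above that background, so it is no measure of the size of the difference. Among genes above a minimum level in choroid plexus epithelium-like cells, Cox8b was also first by fold against the other classes, a rank that gives no size either.

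Cox7a1, the heart and muscle form of Cox7a, was at 112 and 124 CPM in choroid plexus epithelium-like cells beside 1081 and 1144 CPM of Cox7a2, a share of 9.37% (8.62 to 10.2) and 9.79% (8.96 to 10.7). Cox6b2, known from testis, was at 285 and 301 CPM beside 1036 and 1061 CPM of Cox6b1, a share of 21.6% (20.5 to 22.6) and 22.1% (20.97 to 23.3). For all 3 forms the general partner held most of the UMIs.

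In the other described classes the share of Cox8b was at most 1.57%, and that of Cox7a1 at most 4.08% leaving aside pericyte-like cells, where the pair had at most 10 UMIs. Cox6b2 was also present elsewhere, with 12.3% (6.69 to 20.1) and 17.8% (12.5 to 24.2) in fibroblast-like and 8.75% (6.10 to 12.1) and 6.33% (3.08 to 11.3) in astrocyte-like cells. In pericyte-like cells it had 4 of 20 UMIs of its pair, or 20% (5.73 to 43.7), and 1 of 12, or 8.33% (0.211 to 38.5). Oligodendrocyte-like and endothelial-like cells had at most 3.76%. Cox6a2, the heart and muscle form of Cox6a, had 11 UMIs over the 6 described classes, against 786 and 799.97 CPM of its partner Cox6a1 in choroid plexus epithelium-like cells alone, and gave no pattern.

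Pericyte-like cells held other forms. Cox4i2, the form of Cox4 known from lung and from oxygen sensing (chr2:152754173-152765037, plus strand), was at 295 and 196 CPM (47 and 49 UMIs), and made 57.3% (45.9 to 68.2) and 65.3% (53.5 to 75.96) of the Cox4i1 and Cox4i2 UMIs. In the other described classes its share was at most 0.604%, while Cox4i1 reached 2609 and 2599.7 CPM in choroid plexus epithelium-like cells. Ndufa4l2, the hypoxia-responsive relative of Ndufa4 (chr10:127514967-127517154, plus strand), was at 490.2 and 259.9 CPM (78 and 65 UMIs), or 98.7% (93.1 to 99.97) and 95.6% (87.6 to 99.1) of its pair. Ndufa4, the complex I member with the most UMIs in all, had 1 and 3 UMIs in these cells. Fibroblast-like cells had 2.03% and 4.24% Ndufa4l2, and each other described class at most 1.69%. When cells were assigned by clusters rather than by the gate, the shares in the library labelled IL34LacZ/+ were 31.2% for Cox4i2 and 57.3% for Ndufa4l2.

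Astrocyte-like cells had the highest level of another minor form among the 6 described classes. Cox7b2, known from testis (chr5:71442824-71548205, minus strand), was at 14.04 and 18.6 CPM (32 and 23 UMIs), or 8.58% (5.94 to 11.9) and 9.83% (6.33 to 14.4) of its pair with Cox7b. It had 0 and 0 UMIs in choroid plexus epithelium-like cells, where Cox7b was at 1294 and 1326 CPM, a share of 0% (0 to 0.0609) and 0% (0 to 0.0734). In endothelial-like cells it also had 0 and 0 UMIs, a share of 0% (0 to 3.30) and 0% (0 to 7.87), which its lower depth bounds less tightly. Oligodendrocyte-like cells had 1 of 540 and 0 of 613 of the pair's UMIs, and fibroblast-like cells 0 of 64 and 0 of 95. Pericyte-like cells had 0 of 11 and 0 of 8, too few to bound the share closely.

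**Figure D3:**
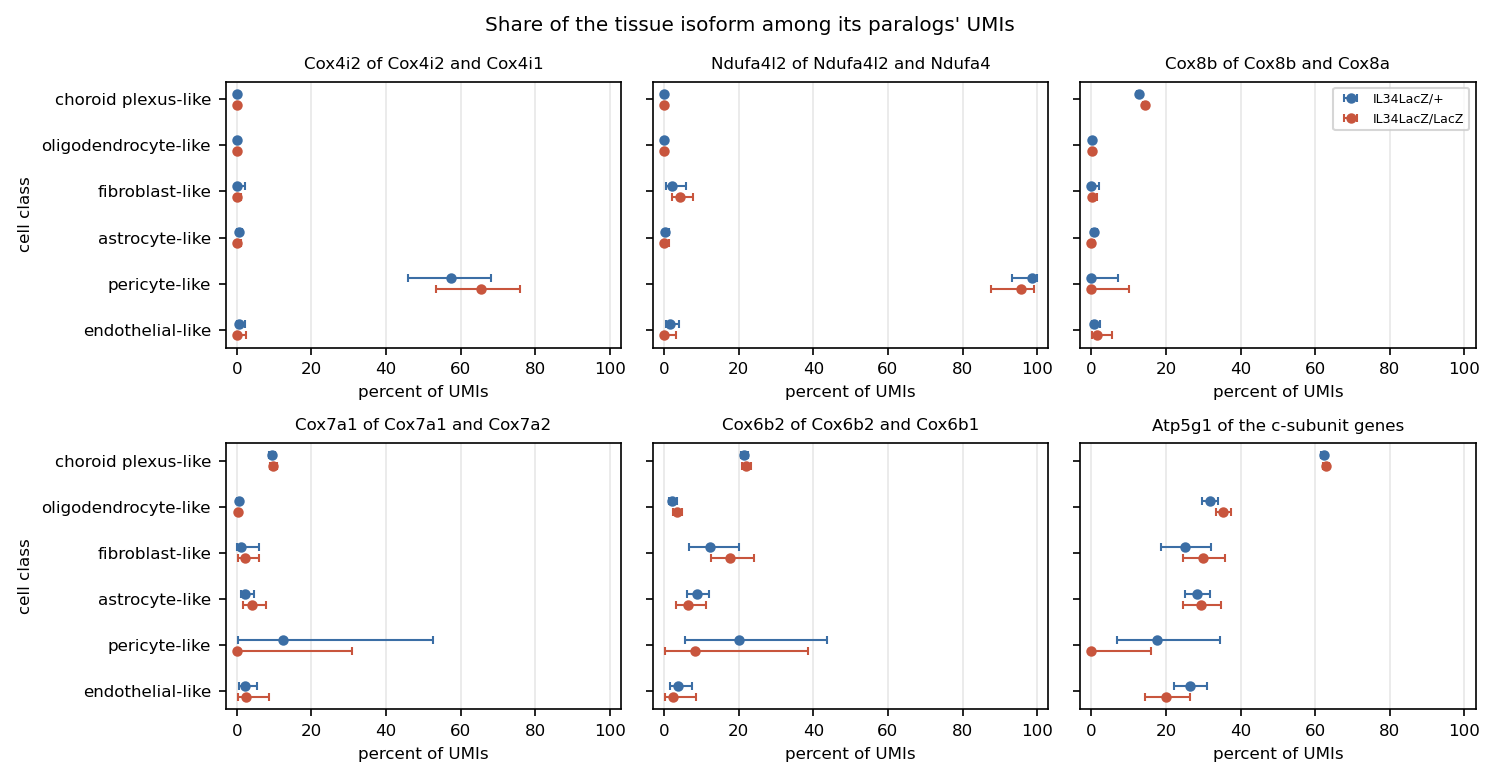
Percent of a pair's or trio's UMIs that came from the named form, by cell class and library, with exact Clopper-Pearson 95% intervals. Cox4i2 and Ndufa4l2 stand out in pericyte-like cells (57.3% and 65.3%, and 98.7% and 95.6%), and Cox8b and Atp5g1 in choroid plexus epithelium-like cells. Cox7a1 was at 9.37% and 9.79% in the latter, and at 12.5% (1 of 8 UMIs) and 0% (0 of 10) in pericyte-like cells. The pericyte intervals are wide because the pairs hold few UMIs.

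The c subunit of complex V, which forms the rotating ring, is encoded by Atp5g1, Atp5g2 and Atp5g3, whose mature proteins are the same. Atp5g1 (chr11:96068852-96075670, minus strand) was at 2114 and 2174 CPM in choroid plexus epithelium-like cells and at 39.2 and 21.8 CPM in endothelial-like cells. It led the 3 genes in choroid plexus epithelium-like cells, with 62.3% (61.5 to 63.02) and 62.9% (62.1 to 63.7) of their UMIs. In the other described classes Atp5g1 took 35.4% or less, and Atp5g2 or Atp5g3 led. Atp5g2 had 46.2% and 46.5% in endothelial-like cells, 45.3% and 41.6% in oligodendrocyte-like cells and 15.4% and 14.2% in choroid plexus epithelium-like cells. Atp5g3 had 27.4% and 33.5% in endothelial-like and 22.4% and 22.9% in choroid plexus epithelium-like cells.

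Promoters of 4 of these genes are printed, since Cox8a and Cox8b, and Atp5g1 and Atp5g3, make alternative copies of a subunit and differ in their class levels. Each is 300 bases of RefSeq sequence, build GRCm38.p6, from 250 before to 50 after the annotated start, 5′ to 3′ on the strand of the gene, which is minus for all 4. Capitals mark matches, on either strand, to the NRF1 palindrome (in its exact form or with the fifth base free), CCGGAAG (ETS), AAGATGGC (YY1), TATAAA (the core promoter box) and AAGGTCA (estrogen-related receptor). Cox8a spans chr19:7217567-7217866, Cox8b chr7:140900397-140900696, Atp5g1 chr11:96075582-96075881 and Atp5g3 chr2:73911277-73911576.
Cox8a: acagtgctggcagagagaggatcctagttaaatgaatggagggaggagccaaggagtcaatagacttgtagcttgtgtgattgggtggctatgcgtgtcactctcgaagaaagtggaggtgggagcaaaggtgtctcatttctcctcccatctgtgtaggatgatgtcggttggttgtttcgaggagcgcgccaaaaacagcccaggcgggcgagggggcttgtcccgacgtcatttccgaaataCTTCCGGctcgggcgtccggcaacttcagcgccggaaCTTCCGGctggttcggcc
Cox8b: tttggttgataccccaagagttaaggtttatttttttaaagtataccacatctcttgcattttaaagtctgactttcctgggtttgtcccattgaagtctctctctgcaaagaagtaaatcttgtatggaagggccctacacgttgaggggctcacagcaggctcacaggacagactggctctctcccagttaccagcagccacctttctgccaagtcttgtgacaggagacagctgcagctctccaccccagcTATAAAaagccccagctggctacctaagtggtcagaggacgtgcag
Atp5g1: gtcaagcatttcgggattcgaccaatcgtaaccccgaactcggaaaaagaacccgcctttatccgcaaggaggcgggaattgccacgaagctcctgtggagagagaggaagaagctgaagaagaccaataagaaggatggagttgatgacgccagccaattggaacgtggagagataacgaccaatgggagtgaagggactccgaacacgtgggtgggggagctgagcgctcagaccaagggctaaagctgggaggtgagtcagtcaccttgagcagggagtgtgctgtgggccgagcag
Atp5g3: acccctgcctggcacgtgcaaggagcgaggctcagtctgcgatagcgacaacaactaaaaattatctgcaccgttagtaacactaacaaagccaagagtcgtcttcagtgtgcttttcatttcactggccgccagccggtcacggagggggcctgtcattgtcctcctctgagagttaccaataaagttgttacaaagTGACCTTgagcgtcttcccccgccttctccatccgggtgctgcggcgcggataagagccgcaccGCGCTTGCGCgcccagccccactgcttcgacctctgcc

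The Cox8a window held 2 ETS matches and no TATAAA, whereas the Cox8b window held 1 TATAAA match and none of the other motifs. The Cox8b match lies within the 50 bases after the annotated start, so it is given as letters and not as a core promoter box. The Atp5g1 window held none of the motifs searched, and the Atp5g3 window held 1 NRF1 match with the free base and 1 estrogen-related receptor match. A match describes letters and does not show binding, and no match says only that these letters are not in the window. Windows were listed for 70 members (75 windows) and not for 16, among them Cox4i1, Cox4i2, Ndufa4l2 and Cox6a2. Over the members' windows the NRF1 palindrome with a free base was in 24% against 4.60% of all 32851 windows, and its exact form, which the former includes, in 6.67% against 0.971%. CCGGAAG was in 22.7% against 8.86%, AAGATGGC in 13.3% against 2.75% and AAGGTCA in 10.7% against 4.72%. TATAAA was in 12% against 13.6%. Member windows had a median GC content of 57.7%, against 52.7% for all windows.

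The class difference varied with the length of the gene. The members lie on 19 chromosomes and have a median gene length of 7.24 kb, introns included. Members under 10 kb (57) had a median choroid plexus epithelium-like over endothelial-like fold of 17.5 and 24.6, and those of 10 to 30 kb (21) of 6.60 and 8.41. The 3 over 30 kb had a median of 1.37 and 1.49, too few to carry a trend by themselves. Ndufs4 (chr13:114287795-114388258, minus strand), an accessory subunit of complex I and the longest of these 3, was 1.27-fold (1.13 to 1.42) and 1.49-fold (1.29 to 1.73) higher in choroid plexus epithelium-like cells. In endothelial-like cells Ndufs4 had more UMIs than any other member, at 154 and 141 CPM. Across members, Pearson's r of the log fold with log length was −0.70 and −0.73 (Spearman's rho −0.64 and −0.65, n = 81). These include Cox8b, Cox7a1 and Cox6b2, whose folds rest on at most 7 UMIs in endothelial-like cells of either library. The points share the libraries and the class totals, and genes are not independent replicates. The relation was not computed for all genes, so it is not shown to be particular to the members. Whether intronic reads were counted is not stated in the sources used here, and their part in the relation was not tested.

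**Figure D4:**
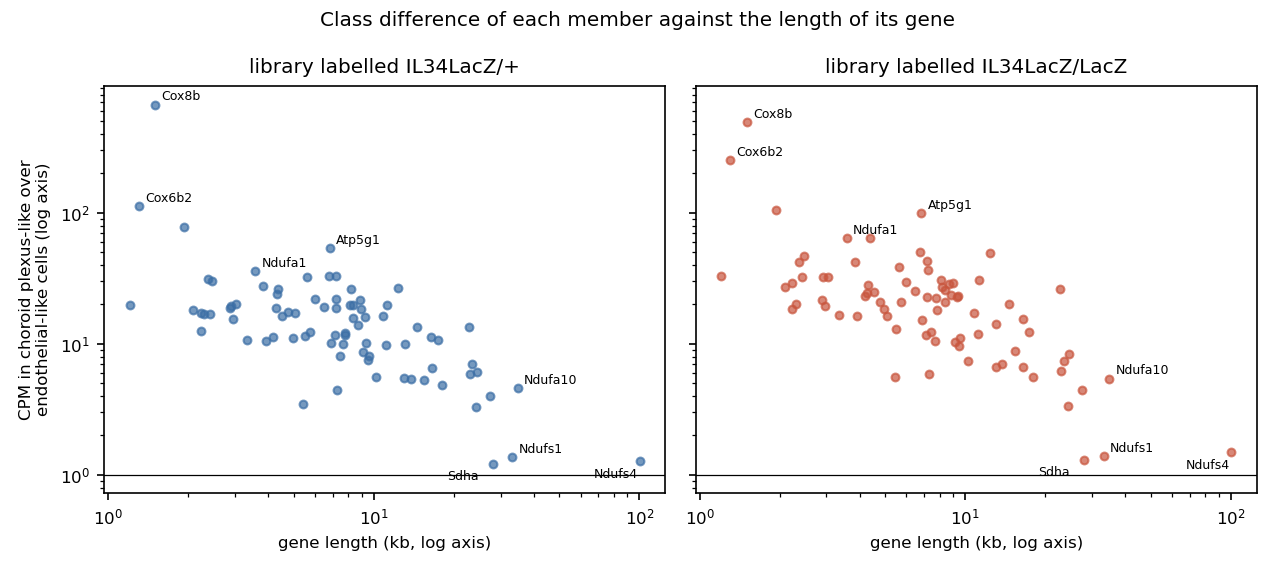
Fold of each of the 81 comparable members in choroid plexus epithelium-like over endothelial-like cells (log axis) against gene length in kb (log axis), 1 panel per library; the horizontal line marks equal levels. Short genes such as Ndufa1 lie high, and Ndufs4, Sdha and Ndufs1 lie near the line. The high points of Cox8b, Cox7a1 and Cox6b2 rest on at most 7 UMIs in endothelial-like cells of either library.

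Between the libraries, the members were lower in endothelial-like cells of the library labelled IL34LacZ/LacZ. The summed levels of 4228 and 3239 CPM gave a log2 ratio of −0.38 (−0.43 to −0.34). Complex IV was at 836 and 564 CPM, a log2 ratio of −0.57 (−0.68 to −0.46), complex I at 1744 and 1325 CPM, −0.40 (−0.47 to −0.32), and complex V at 1044 and 841 CPM, −0.31 (−0.40 to −0.22). Complex III was at 374 and 306 CPM, −0.29 (−0.44 to −0.13), and complex II at 229.7 and 203 CPM, −0.18 (−0.38 to 0.0098). The interval of complex II included 0, and those of the other 4 did not. Within cells below 1.5% ribosomal protein UMIs, complexes III and V were at 0.079 and 0.025. Of 78 members with at least 30 UMIs in these cells, 25 were lower by 1.5-fold or more and 0 were higher, where 10.6% and 5.12% of all 9996 genes measured were. The members' median log2 ratio was −0.43, and that of all genes was −0.033. The 25 comprised 15 of 38 in complex I, 1 of 4 in complex II, 1 of 8 in complex III, 6 of 11 in complex IV and 2 of 17 in complex V. The 8 members not measured were Cox4i2, Cox5b-ps, Cox6a2, Cox6b2, Cox7a1, Cox7b2, Cox8b and Ndufa4l2.

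The 3 lowest ratios belonged to accessory subunits of complex I. Ndufa11, in the membrane arm, was at 34.9 and 14.8 CPM (97 and 25 UMIs), a log2 ratio of −1.24 (−1.94 to −0.59). Ndufa6 was at 47.8 and 24.2 CPM, −0.98 (−1.52 to −0.47), and Ndufa5 at 35.9 and 18.3 CPM, −0.97 (−1.60 to −0.38). The complex IV members with most UMIs were also lower. Cox6c was at 110.0 and 61.4 CPM, −0.84 (−1.18 to −0.52), Cox8a at 111 and 73.8 CPM, −0.59 (−0.90 to −0.28), and Cox4i1 at 118 and 87.97 CPM, −0.43 (−0.72 to −0.14). In complex II the values were −0.16 (−0.41 to 0.080) for Sdha, −0.22 (−0.70 to 0.25) for Sdhb, −0.016 (−0.54 to 0.49) for Sdhc and −0.62 (−1.47 to 0.17) for Sdhd. The 3 highest ratios were those of Atp5b, Ndufs1 and Uqcrc2. Atp5b was at 74.4 and 81.5 CPM, 0.13 (−0.19 to 0.45), Ndufs1 at 67.2 and 70.8 CPM, 0.076 (−0.27 to 0.41), and Uqcrc2, a core protein of complex III, at 66.5 and 69.1 CPM, 0.055 (−0.29 to 0.40). The intervals of these 3 included 0, and each was below 0 under at least 1 other setting: Atp5b was at −0.019 with at most 10% mitochondrial UMIs, Ndufs1 at −0.35 after thinning and Uqcrc2 at −0.027 as a mean over cells. Another core subunit, Ndufv1, lay on the lower side at 28.4 and 18.9 CPM, −0.59 (−1.23 to 0.022). Members named for being at either end were selected by the ratio itself, which the intervals leave out of account. Across the 78 members the ratio was higher for longer genes (r 0.35, rho 0.33, a description).

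The c-subunit genes had unequal ratios in the same cells, with overlapping intervals. Atp5g1 was at 39.2 and 21.8 CPM, −0.84 (−1.42 to −0.29), Atp5g2 at 68.7 and 50.8 CPM, −0.44 (−0.82 to −0.061) and Atp5g3 at 40.6 and 36.6 CPM, −0.15 (−0.62 to 0.31). Atp5g1 was 1 of the 2 complex V members past 1.5-fold.

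**Figure D5:**
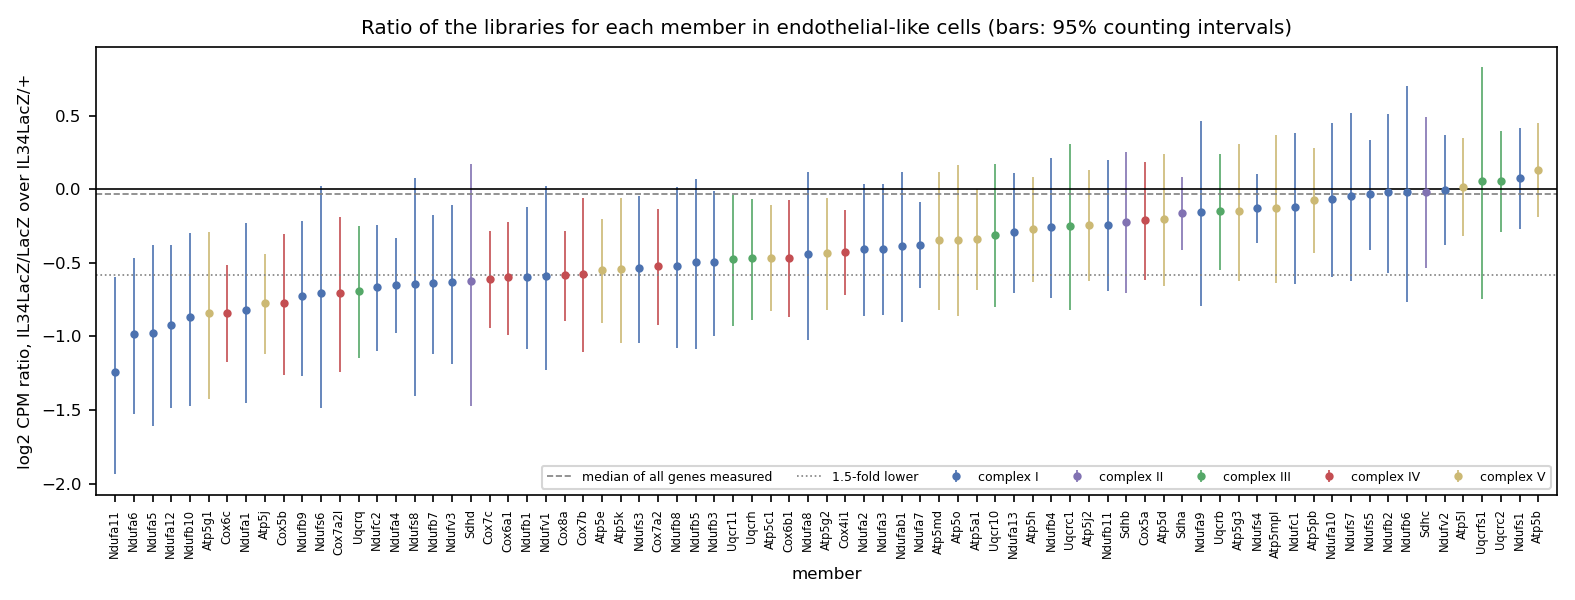
Log2 CPM ratio of the library labelled IL34LacZ/LacZ over that labelled IL34LacZ/+ for 77 of the members measured in endothelial-like cells, ordered by ratio and coloured by complex, with exact 95% counting intervals. The dashed line is the median of all genes (−0.033) and the dotted line marks 1.5-fold lower, beyond which 25 members lie.

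Other transcripts differed beside the members in these cells. Ribosomal protein genes were at 12928 and 8723 CPM, a log2 ratio of −0.57 (−0.60 to −0.54), with 48 of 92 lower by 1.5-fold or more. The 13 mitochondrially encoded subunits went the other way, at 13010.4 and 16881 CPM, 0.38 (0.35 to 0.40). Nuclear members stood at 0.325 and 0.192 UMIs per mitochondrially encoded UMI. The difference of the members was smaller within each part when the cells were split at 1.5% ribosomal protein UMIs. Among cells below 1.5% ribosomal protein UMIs (427 and 268 cells) the members were at 2727 and 2601 CPM, a log2 ratio of −0.068 (−0.13 to −0.0099), with 8 of 78 members lower by 1.5-fold or more and 8.45% of all genes in the same cells. The cells at or above that limit numbered 101 (19.1%) and 35 (11.6%), held 9738 and 8197 CPM and gave −0.25 (−0.33 to −0.17). Both the share of such cells and their member level were thus lower in the library labelled IL34LacZ/LacZ. The limit was taken from an earlier look at these data, and 109 and 57 cells lay within 0.5 percentage points of it.

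Markers of other classes were low in endothelial-like cells, as the gate requires. The 7 erythrocyte markers, which the gate did not compare, were at 2796 and 2806 CPM. Several other lists were lower still in the library labelled IL34LacZ/LacZ, but not those of oligodendrocyte precursors (25.2 and 26.0 CPM) and leukocytes (3.24 and 4.72 CPM). The endothelial markers themselves were also lower there, at 25929 and 23255 CPM. The 10 astrocyte markers summed to 253 and 149.96 CPM (10 and 9 detected), the 10 pericyte markers to 61.8 and 20.7 CPM (10 and 8 detected), the 10 choroid plexus markers to 32.0 and 28.3 CPM (10 and 9 detected) and the 10 microglia markers to 471 and 369 CPM (9 and 7 detected). Their part in the difference was not tested. Taking off the carry-over reckoned from Ttr left a log2 ratio of −0.41. With each cell thinned to 1000 UMIs the ratio was −0.33, and 13 of the 43 members still measured were lower by 1.5-fold or more, with 9.80% of all genes.

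In astrocyte-like cells the summed levels of 9070.2 and 8616 CPM gave a log2 ratio of −0.074 (−0.11 to −0.040), which was 0.020 with a mitochondrial limit of 30% and 0.092 within cells below 1.5% ribosomal protein UMIs. Of 80 members measured 2 were lower by 1.5-fold or more and 0 higher, against 7.23% and 6.79% of all genes. The count of lower members ranged from 1 to 8 over the alternative settings, the 8 being of 54 measured after thinning, with 12.5% of all genes. The lowest were Cox6b2, at 14.5 and 8.08 CPM from 33 and 10 UMIs, −0.84 (−2.03 to 0.21), Atp5g3, at 118 and 76.7 CPM, −0.62 (−0.97 to −0.28), and Uqcrq, a small subunit of complex III, at 109 and 74.3 CPM, −0.55 (−0.91 to −0.20). Cox6b2 was at 0.16 with cells assigned by clusters, and Atp5g3 at 0.26 after thinning. The highest ratios belonged to Ndufv1, at 32.04 and 46.9 CPM, 0.55 (0.025 to 1.07), Cox7b2, at 14.04 and 18.6 CPM, 0.40 (−0.44 to 1.22), and Ndufv3, another subunit of the NADH-oxidising arm, at 57.9 and 70.3 CPM, 0.28 (−0.13 to 0.68). None of the members passed 1.5-fold upwards.

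In oligodendrocyte-like cells the levels of 14708 and 13949.5 CPM gave a log2 ratio of −0.076 (−0.094 to −0.059), which was 0.029 after thinning and 0.041 as a mean over cells. It was −0.19 (−0.21 to −0.17) among cells at or above 1.5% ribosomal protein UMIs (180 and 205 cells, 71.7% and 88.4% of the class) and −0.33 (−0.44 to −0.22) among those below (71 and 27 cells). The ratio within each part was thus lower than over the whole class. None of the 79 members measured passed 1.5-fold, against 4.21% of all genes lower and 3.97% higher. The lowest were Sdhb, at 88.8 and 64.1 CPM, −0.47 (−0.71 to −0.23), Atp5o, in the stalk of complex V, at 165 and 129.9 CPM, −0.34 (−0.51 to −0.17), and Ndufa8 at 83.9 and 69.6 CPM, −0.27 (−0.51 to −0.030). After thinning Sdhb was at 0.47 and Atp5o at 0.80. The highest were Cox6b2, at 5.48 and 7.86 CPM, 0.52 (−0.33 to 1.42), Ndufb1, at 182 and 206 CPM, 0.18 (0.030 to 0.33), and Ndufs1, at 65.1 and 72.9 CPM, 0.16 (−0.090 to 0.42), and after thinning Ndufb1 was at −0.027 and Ndufs1 at −0.038. Cox6b2 was at −0.39 as a mean over cells. Of the members named in this class only Ndufa8 kept its sign under all the settings run.

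In choroid plexus epithelium-like cells the levels of 63352 and 66423 CPM gave a log2 ratio of 0.068 (0.061 to 0.076), a direction that became −0.025 when divided by the median ratio of all genes. None of 81 members passed 1.5-fold, against 2.74% of all genes lower and 11.2% higher. The highest ratios were those of Ndufs6, a zinc-binding accessory subunit, at 298 and 371 CPM, 0.32 (0.21 to 0.42), Cox8b, at 483 and 586 CPM, 0.28 (0.19 to 0.36), and Ndufa5, at 368 and 423 CPM, 0.20 (0.10 to 0.30). The lowest were those of Ndufs3, at 239.8 and 219 CPM, −0.13 (−0.26 to 0.0018), Atp5g2, at 522 and 492 CPM, −0.083 (−0.17 to 0.0044), and Atp5a1, at 689 and 654 CPM, −0.076 (−0.15 to 0.0001). Ndufa5 was thus among the highest ratios here and among the lowest in endothelial-like cells, a difference that was not tested.

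The smaller classes rested on few cells. In pericyte-like cells the levels of 6738 and 4007 CPM gave a log2 ratio of −0.75 (−0.88 to −0.62), and 10 of 19 measured members were lower and 0 higher, against 14.9% and 13.2% of all genes. The cell with most member UMIs gave 24.0% of them in the library labelled IL34LacZ/+ and 9.68% in the other, and without those cells the ratio was −0.55. It was −0.37 within cells below 1.5% ribosomal protein UMIs and −1.72 with cells assigned by clusters. In fibroblast-like cells the levels of 11872 and 14206 CPM gave 0.26 (0.21 to 0.31), with 12 of 79 members higher and 1 lower, against 10.2% and 13% of all genes. The direction was −0.059 with cells assigned by clusters, which put 229 cells in this class where the gate put 76, and −0.0087 within cells below 1.5% ribosomal protein UMIs. The class also differed in make-up between the libraries. Of its cells 12 of 32 and 19 of 44 only just met the gate, and the median cell had 1.44% and 5.18% ribosomal protein UMIs. The 10 fibroblast markers, all detected in both, summed to 6939 and 5727 CPM, and the 7 erythrocyte markers to 1366 and 5835 CPM (6 detected in each). Markers of other classes were present too. The 10 astrocyte markers were at 2365 and 2040 CPM (6 and 7 detected). The 10 pericyte markers were at 902 and 1055 CPM (8 and 7 detected) and the 10 microglia markers at 700 and 506 CPM (4 and 3 detected). Their part in the difference was not tested.

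Genes of the surrounding pathway came from lists of assembly factors, electron carriers and exchangers, regulators, the citric acid cycle and mitochondrial import. In endothelial-like cells 8 of 41 measured assembly factors were lower by 1.5-fold or more and 2 were higher, where 10.6% of all genes measured were lower and 5.12% higher. Their median log2 ratio was −0.10, and their sum was at 1015 and 998 CPM, −0.024 (−0.11 to 0.063). Surf1, which helps build complex IV, was at 16.9 and 5.90 CPM from 47 and 10 UMIs, −1.52 (−2.67 to −0.51), and Cox18, which inserts a mitochondrially made subunit, at 7.91 and 14.8 CPM from 22 and 25 UMIs, 0.90 (0.014 to 1.80). These were the lowest and the highest assembly factor, picked by their ratios. Both act on complex IV, as do many of the listed assembly factors. Of 5 carriers 1 was lower, the ADP/ATP carrier Slc25a5, at 34.1 and 20.1 CPM, −0.77 (−1.38 to −0.19). Of 12 citric acid cycle genes 3 were lower and 0 higher, among them the isocitrate dehydrogenase subunit Idh3a, at 15.8 and 7.68 CPM, −1.04 (−2.06 to −0.12). Of 8 outer membrane and import genes 2 were lower and 0 higher, among them Tomm7, a small subunit of the import pore, at 46.4 and 23.6 CPM, −0.97 (−1.52 to −0.45).

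None of the 7 regulators measured passed 1.5-fold in endothelial-like cells, and Nrf1, a transcription factor of respiratory genes, was at 226 and 244 CPM, 0.11 (−0.076 to 0.29). Among the 13 mitochondrially encoded subunits mt-Nd3 was higher by 1.5-fold or more, at 307 and 476 CPM, 0.63 (0.49 to 0.77), and mt-Nd6 lower, at 43.1 and 24.8 CPM, −0.80 (−1.34 to −0.28). These lists are described by their counts, and no test compared them with the members.

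Nuclear and mitochondrially encoded subunits were in different proportion in the classes. Choroid plexus epithelium-like cells had 0.928 and 0.896 nuclear member UMIs per mitochondrially encoded UMI. Oligodendrocyte-like cells had 0.336 and 0.321, fibroblast-like cells 0.291 and 0.295, pericyte-like cells 0.241 and 0.128 and astrocyte-like cells 0.204 and 0.174. Endothelial-like cells, at 0.325 and 0.192, did not have the lowest proportion of these 6 classes, although their summed member level was the lowest of the 6. The genes outside the list whose level over the 12 class and library sums was most like that of the summed members were Tmem147 (Pearson's r 0.993 on log2 of CPM plus 1), 1110032A03Rik (0.988), Ubl5 (0.984), Glrx5 (0.983) and Thyn1 (0.982), among 9207 genes compared. The 12 points share 2 libraries, and r is given as a description.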

How the data were processed

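Single-cell RNA was measured in 1 library per genotype, IL34LacZ/+ and IL34LacZ/LacZ. The deposited matrices hold raw UMI counts per gene and barcode made by the authors. Per the file headers the software was Cell Ranger 7.1.0, and the reference was GRCm38.p6 (mm10) in the submitters' processing notes. The sources used here do not state the annotation release, or how intronic reads, strand and reads from near-identical copies were handled. Members with such copies, which include processed pseudogenes, are uncertain to that extent.

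From these counts barcodes were kept that had 1000 or more UMIs, 500 or more genes and no more than 15% mitochondrial UMIs. Scrublet (scanpy 1.11.5) marked 9 (0.540%) and 8 (0.681%) barcodes as doublets, against 3.12% and 4.32% expected, and these were removed. A cell entered a class with at least 3 distinct markers of a list (of 15 lists) and 2 more than of any other, and cells with 20% haemoglobin UMIs were set apart. Clusters assigned the same class to 96.4% to 100% of the gated cells of each class. Missed doublets can carry transcripts between classes.

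Summed UMI counts of each class and library were scaled to that sum over all genes (CPM). Intervals are exact (Poisson for CPM, conditional binomial for ratios, Clopper-Pearson for shares). Those for ratios were run on counts simulated as independent, which is what they assume, so spread between cells was not examined. Those for CPM and shares were not tested. All of them treat UMIs as independent and cover counting error only. No p-value was computed. A member was measured in a class with at least 30 UMIs over both libraries, and a difference was counted past 1.5-fold between libraries or 5-fold between classes. Classes with 20 cells in both libraries were described. Genes named with values were the alternative forms and their partners, the complex II subunits, the 2 members with most UMIs per complex, the 3 highest and 3 lowest ratios in each main class, catalytic members, and the 5 most alike genes, compared where they had at least 300 UMIs. One member is counted in all sums but not reported by itself here. Named pathway genes, Ndufs4, Ndufb4 and Cox7b were picked after their values were seen. Alternatives were other cell filters, gates, totals, thinning, weights, clusters and centring. Gene positions came from GENCODE M21 and promoters from RefSeq. The members and lists were chosen with earlier results of these data known.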

Additional observations from a re-analysis of the deposited data

Results flagged for a closer look

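The summed members differed in direction between classes under the same comparison of the libraries, IL34LacZ/LacZ over IL34LacZ/+. The log2 ratio was −0.38 in endothelial-like, −0.074 in astrocyte-like, −0.076 in oligodendrocyte-like and −0.75 in pericyte-like cells, but 0.068 in choroid plexus epithelium-like and 0.26 in fibroblast-like cells. With 1 library per genotype the difference between classes was not tested. The directions in astrocyte-like, oligodendrocyte-like, choroid plexus epithelium-like and fibroblast-like cells turned under at least 1 alternative setting, and those in endothelial-like and pericyte-like cells did not.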

How the results depend on the processing

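No paired analysis was possible because the labels give 1 library per genotype and no replicate numbers. In endothelial-like cells the summed ratio of −0.38 ranged from −0.49 to −0.068 and kept its sign: it was −0.49 with at most 10% mitochondrial UMIs, −0.44 with a gate of 5 markers, −0.33 after thinning to 1000 UMIs, −0.32 as a mean over cells and −0.068 in cells below 1.5% ribosomal protein UMIs. The count of 25 lower members, of 78 measured, stood beside 10.6% of all genes. It was 13 after thinning, where fewer members were measured and 9.8% of all genes were lower. In cells below 1.5% ribosomal protein UMIs it was 8, beside 8.45% of all genes. In those cells complexes III and V also turned, to 0.079 and 0.025. In astrocyte-like cells the ratio of −0.074 was −0.18 with at most 10% mitochondrial UMIs, −0.040 after thinning, −0.019 by clusters, 0.020 with at most 30% mitochondrial UMIs and 0.092 in cells below 1.5% ribosomal protein UMIs. The count of 2 lower members, of 80 measured, stood beside 7.23% of all genes. It was 7 with at most 10% mitochondrial UMIs (9.73% of all genes) and 8 of fewer measured after thinning (12.5%). It was 1 with the stricter gate (7.39%), as a mean over cells (8.52%) and with at most 30% mitochondrial UMIs (7.23%). In oligodendrocyte-like cells the ratio of −0.076 was −0.13 and −0.056 with mitochondrial limits of 10% and 30%, 0.029 after thinning, 0.041 as a mean over cells, −0.10 by clusters, −0.040 after centring on all genes and −0.33 in cells below 1.5% ribosomal protein UMIs. In choroid plexus epithelium-like cells the ratio of 0.068 was 0.078 and 0.0076 with those mitochondrial limits, 0.092 over a total without mitochondrial, haemoglobin and ribosomal protein genes, 0.10 after thinning and as a mean over cells, 0.077 without the cell with most member UMIs and −0.025 after centring. The class fold of 14.99 was 15.5, 17.2, 15.4, 15.5, 15.3 and 15.3 with at most 10% mitochondrial UMIs, the reduced total, thinning, the mean over cells, clusters and without the top cell. The fold of 20.5 was 23.1, 21.4, 23.8, 19.5 and 21.5 with at most 10% mitochondrial UMIs, the stricter gate, the reduced total, at most 30% mitochondrial UMIs and without the top cell. After thinning Atp5g3 in astrocyte-like cells was 0.26, and Atp5o, Ndufb1 and Sdhb in oligodendrocyte-like cells were 0.80, −0.027 and 0.47. Fibroblast-like cells turned to −0.059 by clusters and −0.0087 in cells below 1.5% ribosomal protein UMIs. The cause was not tested. A minimum of 2000 UMIs and keeping doublets moved none of the summed ratios and class folds of the 4 main classes beyond their counting intervals. The counts of lower members have no such interval, and under these settings they stayed within 1.5-fold of the main counts. The limits of 30% mitochondrial and 1.5% ribosomal protein UMIs and leaving out the top cell were chosen after seeing the data. Few cells of choroid plexus epithelium fell below the ribosomal limit, so it gave no ratio there. Counting depth limits members in endothelial-like and pericyte-like cells, where many have under 100 UMIs.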

Other observations

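Classes outside the comparisons also held the members. Microglia-like cells, of which there were 45 and 11, had 12597 and 14247 CPM over all members, and 16244 and 15814 CPM in the median cell. A single cell gave 40% of these UMIs in the library labelled IL34LacZ/LacZ. Neuron-like cells, 18 in each library, had 1968 CPM (180 UMIs) and 2033 CPM (270 UMIs), with intervals below those of the endothelial-like cells. The 121 and 80 ungated cells were at 17493 and 16244 CPM.

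Barcodes that were not kept held members as well. Those with at least 1000 UMIs but over 15% mitochondrial UMIs numbered 729 and 1310 and were at 30618 and 38188 CPM, against 26196 and 26171 CPM over all kept cells. Ttr was at 76043 and 122009 CPM in these barcodes and at 87255 and 69172 CPM in the kept cells.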
